A study of Homo sapiens with 8 samples.

Results

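Medium collected on day 4 of senescence induction is the earliest induced medium of the series, and the genes it changed in recipient fibroblasts are described here. The libraries are the 2 of D4 and the 2 of D0, which are 4 of the 8 sequenced. Recipients were normal IMR90 cells, primary fibroblasts from human embryonic lung, and both groups were kept for 3 days in medium taken from IMR90 ER:RAS fibroblasts. In these producer cells the RAS oncogene is fused to the hormone-binding part of the estrogen receptor and is switched on by 4-hydroxytamoxifen (4-OHT). D0 recipients received medium of day 0 and D4 recipients medium of day 4 of 4-OHT. Day of induction and length of exposure of the producers to 4-OHT are the same variable, so 4-OHT carried over in the medium and factors secreted by the producers cannot be told apart. Replicates 1 and 2 of every group come from 2 independent experiments, called experiment 1 and experiment 2 below. The counts deposited by the authors totalled 12591282 and 13173746 at D0 and 13259801 and 13256455 at D4.

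An active RAS oncogene drives normal fibroblasts into senescence, a lasting arrest of division accompanied by secretion of cytokines, growth factors and proteases known as the senescence-associated secretory phenotype (SASP). Its early phase is known for Notch and TGF-beta activity and its late phase for NF-kappaB-driven interleukins and chemokines. Cells that receive the secreted factors can change their own expression and may themselves become senescent, which is called paracrine senescence. In lung, fibroblasts build and remodel the matrix, and in culture they carry smooth muscle actin and other marks of the contractile myofibroblast.

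Expression is given as CPM, the counts of a gene brought to a common library size that edgeR's TMM method adjusts. The recipients carried the markers of fibroblasts, whose 12 listed genes summed to between 33292 and 49082 CPM in the 4 libraries, led by COL1A1 and COL1A2. The 8 epithelial markers in the table summed to between 56.8 and 95.8 CPM, nearly all from the keratins KRT8 and KRT18, while CDH1, KRT14 and SFTPC had at most 3 counts in any of these libraries. Endothelial markers summed to 91.2 and 79.3 CPM at D0 and 42.9 and 53.9 CPM at D4, nearly all from the receptor TEK, and PECAM1 and KDR had at most 3 counts. The 7 immune markers in the table summed to between 1.53 and 3.85 CPM. HRAS, one of the RAS genes, was at 54.3 and 37.9 CPM at D0 and 66.1 and 36.5 CPM at D4 in experiments 1 and 2, and ESR1, which encodes the estrogen receptor, was counted 0 and 1 times at D0 against 0 and 4 times at D4. The estrogen target GREB1 had 1.68 and 1.09 CPM and then 0.931 and 0.671 CPM (log2 -0.78, adjusted p = 0.780). D4 libraries did not stand apart from D0 libraries in HRAS.

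With the experiment as a replicate block, the quasi-likelihood test of edgeR (p-values adjusted by Benjamini-Hochberg) placed 38 of 13798 tested genes (0.275%) under an adjusted p of 0.05 with the same direction in both experiments. At D4, 12 genes (0.087%) rose, with a median log2 fold change of 1.69, and 26 (0.188%) fell, with a median of -1.63. All 38 encode proteins, as do 12205 of the 13798 tested genes. Of the 38, 34 changed at least 2-fold, and in every one both D4 libraries lay outside the range of the D0 libraries. The smallest adjusted p was 0.0136, and 1124 genes (479 higher and 645 lower) had an unadjusted p under 0.05. The median over all tested genes was 0.00.

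The number of calls changed with the model and the libraries used. Without the block the same test called 0 genes and 0 of the 38, and DESeq2 without a block called 44, which included 26 of the 38. DESeq2 with the block called 213 genes, among them all 38. Its adjusted p was also under 0.05 for further genes, among them PLAT (4.7e-08), ACTA2 (2.8e-06), SOX9 (2.3e-05), TGFB2 (0.00020), DLL4 (0.00098), BMP4 (0.0096) and BMP2 (0.011). For TGFB3 it was 0.941. Genes described below as called or not called are those of the blocked edgeR test. Leaving out either D0 library, D4 replicate 1 or either D7 library left 0 calls, and leaving out D4 replicate 2 left 2, NR4A2 and PLXNC1. Without D10 replicate 1 or 2 there were 491 and 451 calls, among them all 38. No called gene changed direction in any of these fits, but a call already required the same direction in both experiments, which makes a reversal unlikely.

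The experiments share no library, so a change in one can be set against the same change in the other. Across the 13798 genes the log2 changes from D0 to D4 in experiments 1 and 2 correlated with Pearson's r = 0.400, a correlation across genes, which are not independent replicates. Of 205 genes at least 2-fold higher at D4 in experiment 1, 151 (73.7%) were also higher in experiment 2, where their median change was 0.60, against 50.7% of all tested genes. Of 381 genes at least 2-fold lower in experiment 1, 315 (82.7%) were lower in experiment 2, with a median of -0.63, against 49.3% of all genes. At least 2-fold changes in both experiments were seen for 76 genes upwards and 119 downwards. The SD of the change over all genes was 0.45 in experiment 1 and 0.46 in experiment 2, while the difference between both D0 libraries had an SD of 0.62.

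**Figure D1:**
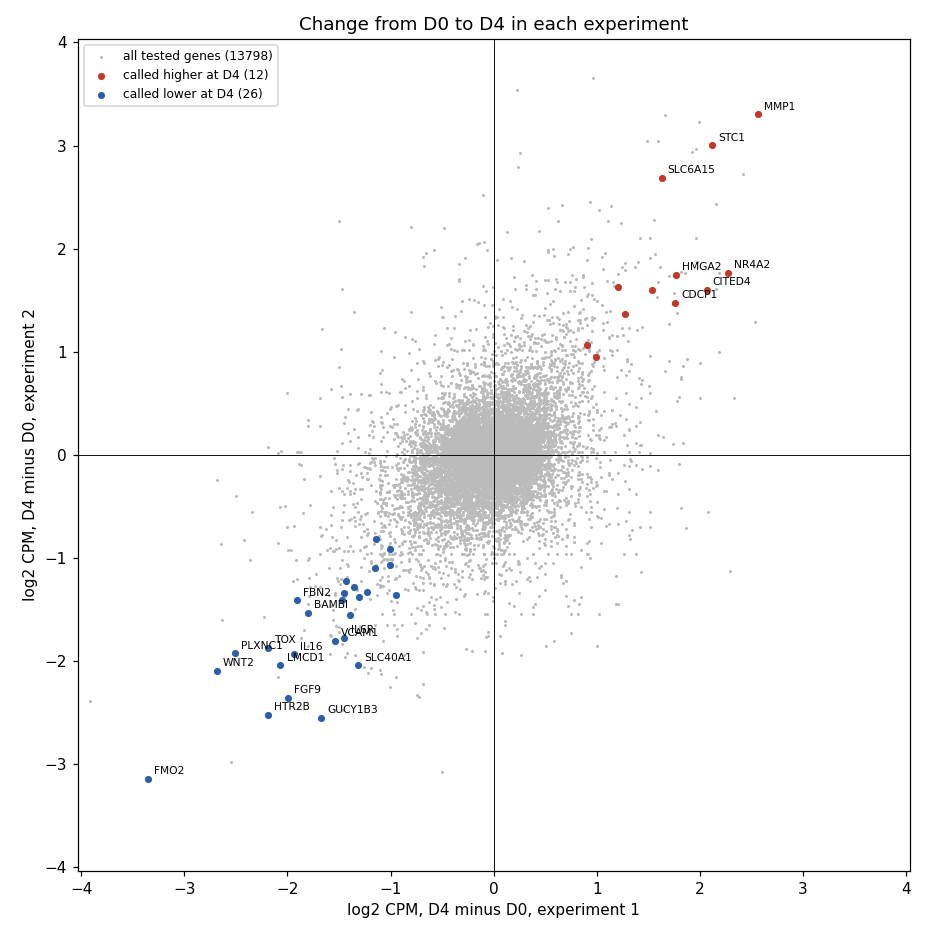
Difference in log2 CPM between D4 and D0 in experiment 1 (horizontal axis) and experiment 2 (vertical axis) for all 13798 tested genes, with the 12 genes called higher in red and the 26 called lower in blue. Called genes lie in the upper right and lower left corners, from MMP1 and STC1 to FMO2, and the cloud of other genes is tilted along the diagonal with r = 0.400.

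The largest rise was that of MMP1 (GRCh38 chr11:102789920-102798160, minus strand), which encodes the interstitial collagenase that cuts fibrillar collagens. Its level was 111 and 62.4 CPM at D0 in experiments 1 and 2 and 660 and 617 CPM at D4. The D4 libraries were close to each other and well above both D0 libraries, with a log2 fold change of 2.88 ± 0.36 (SE, n = 2 per group), which is 7.36-fold (edgeR adjusted p = 0.0219). Of the exon bases of MMP1, 7.61% overlap the opposite-strand gene WTAPP1, and since the strand setting of the counting is not given in the sources used here, their reads cannot be told apart; WTAPP1 itself was at 0 CPM in both D0 libraries and at a mean of 0.380 CPM at D4. STC1, which encodes the secreted hormone stanniocalcin 1, rose from 61.5 and 44.6 CPM to 267 and 359 CPM, with a log2 fold change of 2.54 ± 0.27 (edgeR adjusted p = 0.0164). Both genes were higher again with later media, at 1361 and 1421 CPM for MMP1 and 499 and 485 CPM for STC1 at D7, and at 3206 and 5725 CPM and 1464 and 2172 CPM at D10.

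Regulators of transcription and chromatin formed the next group of rises. NR4A2 (chr2:156324432-156342348, minus strand), an orphan nuclear receptor of the immediate-early class, had 2.68 and 6.92 CPM at D0 and 13.5 and 23.9 CPM at D4, a log2 fold change of 2.05 ± 0.22 (edgeR adjusted p = 0.0164). Its relatives did not pass the test, and NR4A1 was at 3.69 and 48.1 CPM at D0 and 5.90 and 50.7 CPM at D4, and NR4A3 was below 2 CPM throughout. CITED4 (chr1:40861051-40862366, minus strand), a co-regulator that binds CBP and p300, rose from 7.21 and 5.60 CPM to 30.7 and 17.3 CPM, a log2 fold change of 1.86 ± 0.18 (edgeR adjusted p = 0.0136). HMGA2, an architectural chromatin protein of fetal tissues, rose from 79.1 and 138 CPM to 269 and 463 CPM with the same log2 change in both experiments, 1.76 and 1.75. The D4 libraries stood above both D0 libraries for NR4A2, CITED4 and HMGA2, although the experiments differed in level.

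Membrane proteins and signal regulators made up the rest of the rises. SLC6A15, a sodium-dependent transporter of neutral amino acids, had 3.94 and 2.04 CPM at D0 and 12.5 and 13.9 CPM at D4, a log2 fold change of 2.21 ± 0.30. CDCP1, a transmembrane substrate of Src family kinases, went from 2.85 and 5.75 CPM to 10.0 and 16.3 CPM (log2 1.62 ± 0.21). TPBG, the cell surface glycoprotein also called 5T4, went from 95.8 and 99.4 CPM to 180 and 208 CPM and had the smallest distance from the threshold among the rises (edgeR adjusted p = 0.0487). The others restrain signalling. ARHGAP22, a GTPase-activating protein, rose from 33.1 and 24.5 CPM to 95.9 and 74.4 CPM, and RGS4, which inactivates heterotrimeric G proteins, rose from 9.13 and 12.4 CPM to 21.3 and 38.7 CPM. SOCS2, a feedback inhibitor of cytokine and growth hormone receptors, rose from 17.2 and 19.4 CPM to 41.8 and 50.2 CPM, and SPRY2, a feedback inhibitor of the RAS and ERK pathway, rose from 28.2 and 43.6 CPM to 56.2 and 84.3 CPM with a log2 fold change of 0.97 ± 0.14. At D10 ARHGAP22 had 67.5 and 32.5 CPM, RGS4 had 17.8 and 20 CPM and SPRY2 had 54.5 and 67.8 CPM, in each experiment below its value at D4.

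**Figure D2:**
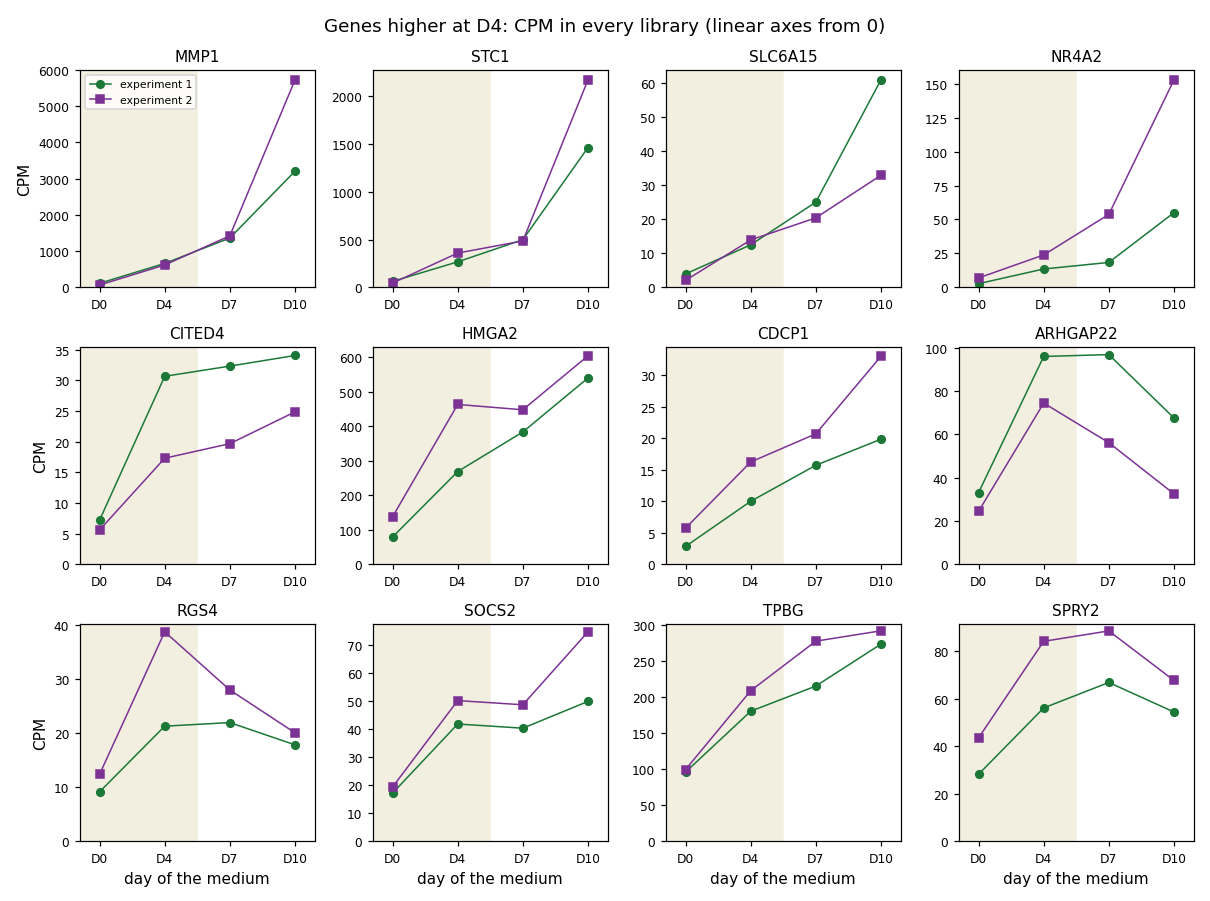
CPM (vertical axes, linear from 0) of the 12 genes higher at D4 in every library by day of the medium, with experiment 1 as green circles and experiment 2 as purple squares; D0 and D4 are shaded. In all 12 panels both D4 points lie above both D0 points, and MMP1, STC1, SLC6A15 and NR4A2 are highest at D10 while ARHGAP22, RGS4 and SPRY2 are lower there than at D4.

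The largest fall was in FMO2 (chr1:171185208-171211230, plus strand), a flavin-containing monooxygenase of the lung. Its reads numbered 36 and 215 at D0 and 2 and 22 at D4, or 3.02 and 15.6 CPM and 0.155 and 1.64 CPM, and its log2 fold change was -3.47 ± 0.37 (edgeR adjusted p = 0.0164). The level differed between experiments, and the D4 library of each was far below its own D0 library, with changes of -3.36 and -3.14 on the log2 scale.

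Signalling ligands were among the steepest falls. WNT2, a Wnt ligand of lung mesenchyme, had 10.8 and 19.9 CPM at D0 and 1.55 and 4.55 CPM at D4, a log2 fold change of -2.43 ± 0.33 (edgeR adjusted p = 0.0300). FGF9, a fibroblast growth factor that acts between mesothelium, epithelium and mesenchyme in the growing lung, fell from 9.72 and 16.3 CPM to 2.33 and 3.06 CPM (log2 -2.25 ± 0.26). IL16, a cytokine that binds CD4, fell from 20 and 38.3 CPM to 5.12 and 9.92 CPM, but 36.6% of its exon bases lie opposite another gene such as STARD5 (means of 6.22 CPM at D0 and 5.94 CPM at D4), so its counts could be shared. Each of these ligands fell by a similar log2 amount in both experiments, -2.68 and -2.10 for WNT2, -1.99 and -2.36 for FGF9 and -1.94 and -1.93 for IL16.

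Receptors and their partners formed a second group of falls. HTR2B, the serotonin receptor 2B, had 9.38 and 16.2 CPM at D0 and 1.94 and 2.68 CPM at D4 (log2 -2.44 ± 0.28, edgeR adjusted p = 0.0187), with 24.9% of its exon bases opposite PSMD1, a gene at a mean of 189 CPM at D0 and 197 CPM at D4. GUCY1B3, a subunit of the soluble guanylate cyclase that senses nitric oxide, fell from 5.28 and 11.2 CPM to 1.55 and 1.79 CPM (log2 -2.24 ± 0.32). PLXNC1, a plexin that binds semaphorin 7A, fell from 47.9 and 76.9 CPM to 8.30 and 20.1 CPM (log2 -2.19 ± 0.21). All 4 libraries placed these receptors in the same order, D4 below D0. VCAM1, an adhesion molecule for leukocyte integrins and a target of NF-kappaB, fell from 340 and 516 CPM to 117 and 148 CPM, a log2 fold change of -1.68 ± 0.21. At D10 it was at 398 and 358 CPM. BAMBI, a pseudoreceptor that restrains TGF-beta and BMP receptors, fell from 63.9 and 43.2 CPM to 18.2 and 14.8 CPM (log2 -1.68 ± 0.17, edgeR adjusted p = 0.0136), and was at 14.9 and 12.5 CPM at D10. IL6R, the ligand-binding chain of the interleukin 6 receptor, fell from 28.0 and 26.4 CPM to 10.2 and 7.60 CPM. FLRT2, an adhesion and guidance protein of the membrane, also fell, with a log2 fold change of -1.34.

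The other genes among the 12 largest falls were a transporter and regulators of transcription. SLC40A1, the iron exporter ferroportin, fell from 15.7 and 33.3 CPM to 6.21 and 7.98 CPM (log2 -1.73 ± 0.25). LMCD1, a LIM-domain co-regulator, had 14.2 and 15.8 CPM at D0 and 3.26 and 3.73 CPM at D4 (log2 -2.10 ± 0.30), and TOX, a DNA-binding HMG-box protein, had 14.7 and 16.5 CPM and 3.10 and 4.40 CPM. Replicates of LMCD1 and TOX lay close together within each group, and the gap between groups was several times their spread.

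**Figure D3:**
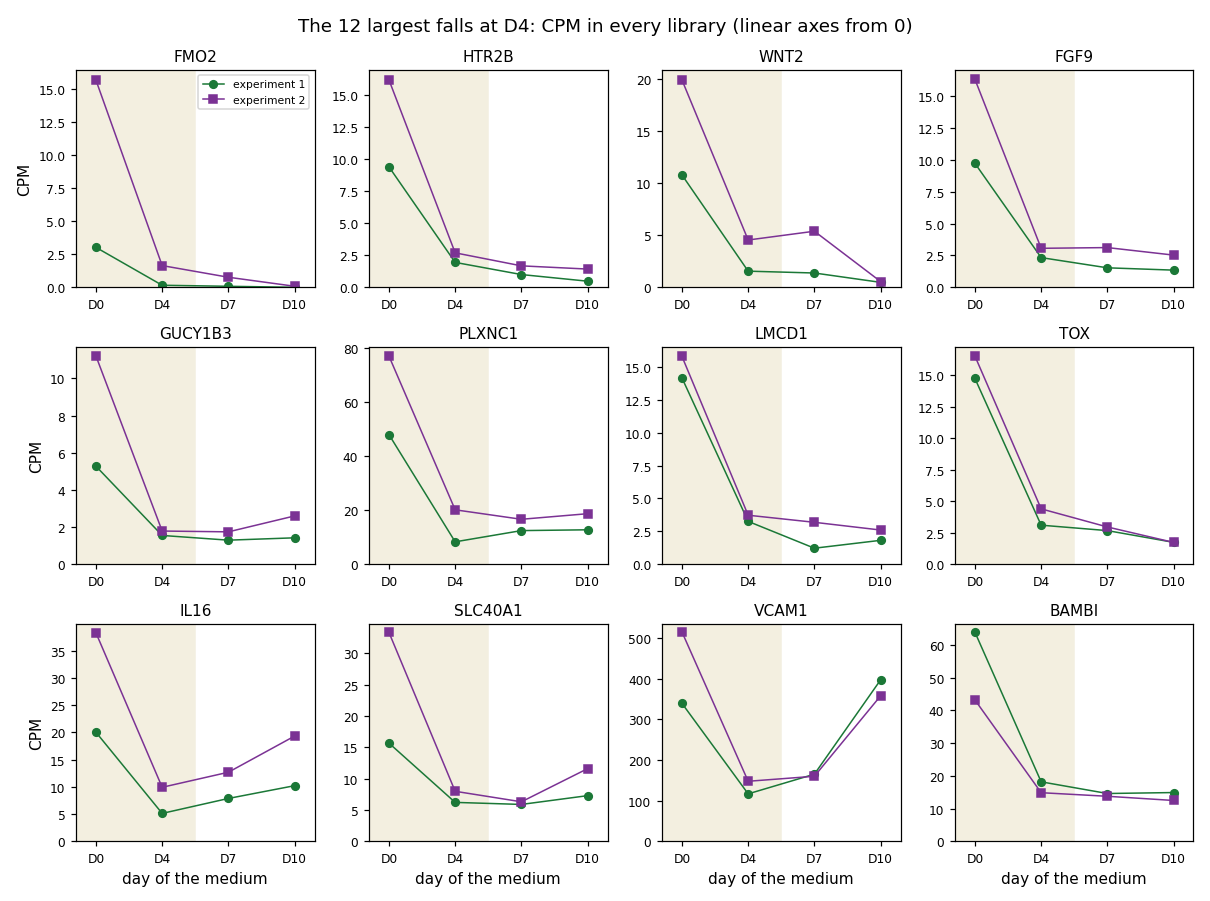
CPM (vertical axes, linear from 0) of the 12 genes with the largest falls at D4 in every library by day of the medium, drawn as in the plot of the rises. Both D4 points lie below both D0 points in all 12 panels, and VCAM1 returns to 398 and 358 CPM at D10 while WNT2 and FMO2 are at their lowest there.

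The 14 smaller falls ranged in log2 fold change from -1.64 to -0.96, IL6R and FLRT2 above being 2 of them. Matrix genes were FBN2, the microfibril protein fibrillin 2, with 1165 and 1127 CPM at D0 and 310 and 425 CPM at D4 (log2 -1.63 ± 0.25, edgeR adjusted p = 0.0449), and the proteases ADAMTS1 (-1.39) and ADAMTS8 (-1.13), which act on proteoglycans. PMP22, a membrane protein of myelin that fibroblasts also make, had -1.28, and AKR1C1, an aldo-keto reductase of steroid metabolism, had -1.35, with 28.6% of its 50-base words shared with AKR1C2 and other relatives, so that its reads may be split among them. Transcription-related genes were MAMLD1 (-1.48), with a Mastermind-like domain, and STOX2 (-1.46), a storkhead-box protein. The remaining 5 were IVNS1ABP (-1.32), a kelch protein that binds actin, the uncharacterised C1orf198 (-1.16), ARMC9 (-1.04), which acts in cilia, PRRG1 (-0.97), a membrane protein with a Gla domain, and RAB11FIP1 (-0.96), a partner of RAB11 in endosome recycling. RAB11FIP1 has 24.8% of its exon bases opposite another gene.

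RefSeq promoters (build GRCh38.p14, 250 bases before to 50 after the start) were matched for 6 of the 12 rises and 19 of the 26 falls. They are shown for the 2 rises and the 2 falls with the largest changes among genes that had an entry and at least 20 counts in each library of 1 group: CITED4 (chr1:40862314-40862613, minus strand), CDCP1 (chr3:45146329-45146628, minus strand), WNT2 (chr7:117323009-117323308, minus strand) and GUCY1B3, named GUCY1B1 in RefSeq (chr4:155758771-155759070, plus strand). All read 5′ to 3′ along the gene, and capitals would mark a motif.
CITED4: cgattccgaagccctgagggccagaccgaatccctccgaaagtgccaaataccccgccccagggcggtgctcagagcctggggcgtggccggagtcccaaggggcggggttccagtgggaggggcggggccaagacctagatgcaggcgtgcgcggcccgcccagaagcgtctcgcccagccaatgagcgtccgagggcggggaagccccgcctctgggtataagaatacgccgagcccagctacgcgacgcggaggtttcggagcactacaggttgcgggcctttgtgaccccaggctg
CDCP1: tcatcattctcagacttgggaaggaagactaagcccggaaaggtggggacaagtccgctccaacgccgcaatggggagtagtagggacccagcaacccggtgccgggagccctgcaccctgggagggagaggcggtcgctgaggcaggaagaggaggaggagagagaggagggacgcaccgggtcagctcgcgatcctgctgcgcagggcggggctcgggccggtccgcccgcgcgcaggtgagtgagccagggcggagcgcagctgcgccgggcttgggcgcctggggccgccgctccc
WNT2: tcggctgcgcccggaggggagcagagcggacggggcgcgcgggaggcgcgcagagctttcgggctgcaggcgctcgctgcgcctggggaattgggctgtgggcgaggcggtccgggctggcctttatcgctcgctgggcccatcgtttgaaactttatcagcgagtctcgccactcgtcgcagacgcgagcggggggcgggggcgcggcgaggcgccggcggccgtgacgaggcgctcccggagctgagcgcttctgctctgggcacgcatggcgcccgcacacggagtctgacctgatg
GUCY1B3: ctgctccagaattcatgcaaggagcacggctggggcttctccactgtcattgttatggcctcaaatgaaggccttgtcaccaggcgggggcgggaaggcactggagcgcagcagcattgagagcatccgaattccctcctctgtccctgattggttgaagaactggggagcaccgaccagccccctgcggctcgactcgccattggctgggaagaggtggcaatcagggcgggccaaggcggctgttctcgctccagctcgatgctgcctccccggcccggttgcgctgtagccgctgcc

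None of the motifs searched on both strands, TGANTCA for AP-1, CATTCC for TEAD and CAGACA for SMAD, occurs in these 4 windows. The motifs were found in 7.8%, 14.0% and 16.8% of all 27305 promoters of the table. AP-1 letters were in 0 of the 6 matched promoters of rises and in 2 of the 19 of falls (PLXNC1 and IL6R), TEAD letters in 0 and in 1 (C1orf198), and SMAD letters in 2 (RGS4 and TPBG) and in 3 (AKR1C1, SLC40A1 and VCAM1). The gene with the largest change that holds each motif, a choice made after the matches were seen, is printed with the matching letters in capitals: PLXNC1 for AP-1 (chr12:94262369-94262668, plus strand, bases -91 to -85 from the start), C1orf198 for TEAD (chr1:230869542-230869841, minus strand, bases -82 to -77) and SLC40A1 for SMAD (chr2:189580737-189581036, minus strand, bases -208 to -203). The windows of PLXNC1 and SLC40A1 lie within the gene as GENCODE 29 draws it, at a RefSeq start downstream of its first. A match is a description of letters and says nothing of a factor bound there.
PLXNC1: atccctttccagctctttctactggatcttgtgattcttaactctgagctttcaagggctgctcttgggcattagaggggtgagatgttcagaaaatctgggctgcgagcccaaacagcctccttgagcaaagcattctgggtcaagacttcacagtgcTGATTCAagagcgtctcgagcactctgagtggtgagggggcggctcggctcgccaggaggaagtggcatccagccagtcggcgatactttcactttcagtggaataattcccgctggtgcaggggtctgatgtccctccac
C1orf198: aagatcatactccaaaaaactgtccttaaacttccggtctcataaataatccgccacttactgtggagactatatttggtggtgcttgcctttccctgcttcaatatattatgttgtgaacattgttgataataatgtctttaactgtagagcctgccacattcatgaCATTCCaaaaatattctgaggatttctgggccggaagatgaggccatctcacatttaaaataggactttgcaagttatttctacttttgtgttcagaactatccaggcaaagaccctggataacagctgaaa
SLC40A1: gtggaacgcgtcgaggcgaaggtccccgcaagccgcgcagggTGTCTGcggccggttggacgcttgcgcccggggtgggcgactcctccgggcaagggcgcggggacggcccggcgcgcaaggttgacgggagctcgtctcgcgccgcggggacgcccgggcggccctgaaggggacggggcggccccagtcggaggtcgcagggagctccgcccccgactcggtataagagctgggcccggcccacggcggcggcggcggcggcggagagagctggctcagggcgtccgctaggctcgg

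For pathways, 49 gene lists with 793 distinct members were described by counts and medians, of which 662 members were tested, and 13 lists held a called gene. Beside every list stands the background that 29.8% of all tested genes were higher and 28.9% lower at D4 in both experiments, with a median log2 fold change of 0.00. The filter on low counts used all 8 libraries, so members with few or no counts at D0 and D4 are among those tested where their counts were higher at D7 or D10. Libraries are bulk, so fewer cells of a kind and less RNA per cell cannot be told apart. Of the 38 called genes, 13 are in a list and 25 are in none, while 0.275% of all tested genes were called. The lists were chosen with earlier results of these data known, so a higher share of calls among their members is no result.

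Feedback genes of the ERK pathway, which are transcribed when RAS and ERK signal and then restrain it or carry it on, were mostly higher. Of 19 tested, 17 were higher in both experiments and 0 lower in both, with a median of 0.42 and medians of 0.55 and 0.46 in experiments 1 and 2, and 1, SPRY2, passed the test. The phosphatase genes next to it by p did not: DUSP4 had 5.45 and 2.91 CPM at D0 and 13.4 and 11 CPM at D4 (log2 1.57, edgeR adjusted p = 0.0516), and DUSP6 had 104 and 111 CPM and 188 and 188 CPM (log2 0.80, adjusted p = 0.0640). Both D4 values lay above both D0 values for DUSP4 and DUSP6. CCND1, the cyclin that ERK signalling raises, was at 2498 and 1643 CPM and then 3768 and 3128 CPM (adjusted p = 0.439).

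EGF family ligands signal through EGFR to the same pathway. AREG, amphiregulin, had 3.02 and 1.97 CPM at D0 and 11.9 and 16.1 CPM at D4 (log2 2.48, edgeR adjusted p = 0.107), and HBEGF had 14.5 and 13.2 CPM and 31.8 and 27.0 CPM (log2 1.08, adjusted p = 0.108). EGFR itself was at 192 and 244 CPM and 143 and 263 CPM. Of 7 tested members 5 were higher in both experiments, and 0 passed the test. Immediate-early transcription factors, of which NR4A2 was the single call among 18, differed chiefly between experiments: FOS had 0.587 CPM at D0 and 0.854 CPM at D4 in experiment 1 and 265 and 245 CPM in experiment 2, and EGR1 had 41.6 and 28.9 CPM against 418 and 355 CPM.

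Interferon-stimulated genes, the antiviral program of interferon signalling, were mostly lower. Of 18 tested, 15 were lower in both experiments and 0 higher, with a median of -0.72, and 0 passed the test. The median was -0.53 in experiment 1 and -1.11 in experiment 2. IFIT2, an antiviral protein, had 15.0 and 22.3 CPM at D0 and 5.90 and 8.95 CPM at D4 (log2 -1.33, edgeR adjusted p = 0.0547). It lay just outside the threshold, with both D4 libraries below both D0 libraries. ISG15 had 99.9 and 55.4 CPM and then 83.3 and 28.1 CPM, groups that overlap.

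**Figure D4:**
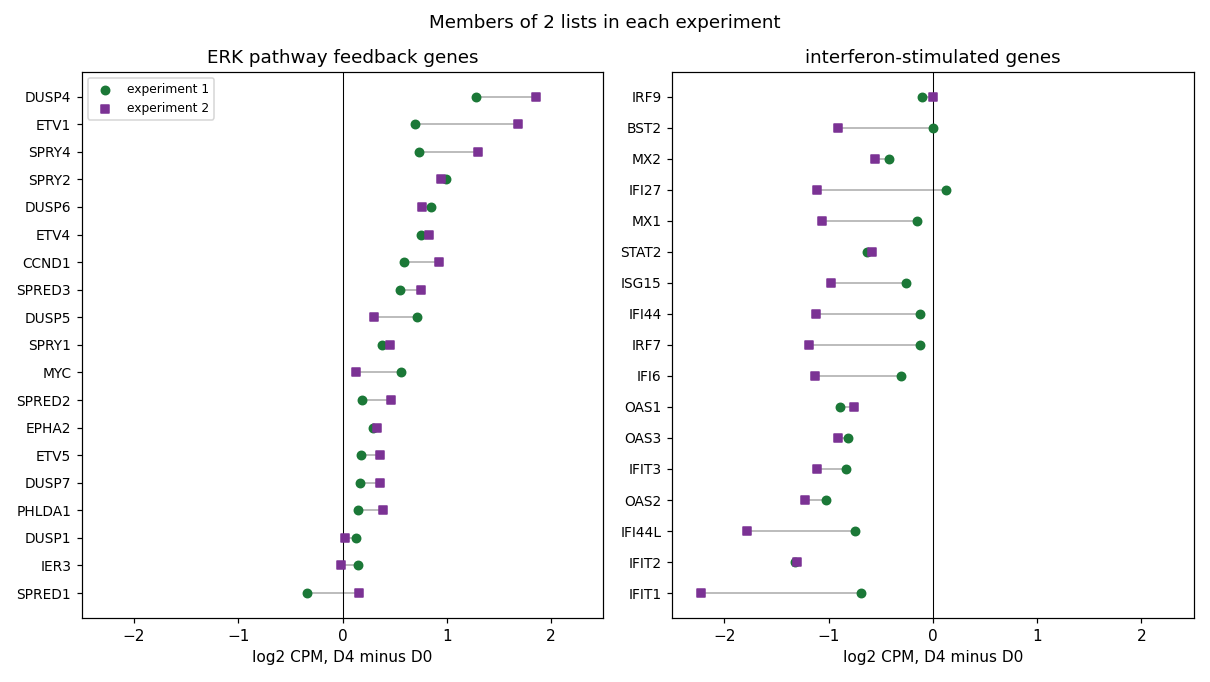
Difference in log2 CPM between D4 and D0 (horizontal axes) for the 19 tested ERK feedback genes (left) and 17 interferon-stimulated genes (right), with experiment 1 as green circles and experiment 2 as purple squares. Of the 19 genes on the left 17 have both points above 0, and of the 17 on the right 14 have both points below 0.

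Extracellular proteases form several families, among them the plasminogen activators, the matrix metalloproteases and the ADAMTS enzymes. Of 8 plasminogen activation genes 6 were higher in both experiments, with a median of 0.70 and no call. PLAT, tissue plasminogen activator, had 985 and 918 CPM at D0 and 2597 and 3353 CPM at D4 (log2 1.61 ± 0.29, edgeR adjusted p = 0.0722), and PLAU, urokinase, had 1181.5 and 1000.4 CPM and 2292 and 2534 CPM (adjusted p = 0.134). In both, D4 libraries lay above both D0 libraries. Of 13 tested metalloproteases and inhibitors MMP1 alone was called, while MMP2 and MMP14 had log2 fold changes of -0.17 and 0.02, and MMP3, a stromelysin, had 19.5 and 4.29 CPM and 26.9 and 9.10 CPM, values that overlap. Of 11 ADAMTS genes 2 fell (ADAMTS1 and ADAMTS8), 8 were lower in both experiments and 0 higher, with a median of -0.36.

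Contractile genes mark the myofibroblast. Of 23 smooth muscle contractile genes 19 were lower in both experiments and 2 higher, with a median of -0.35, and 0 were called. ACTA2, smooth muscle actin, had 1347 and 1164 CPM at D0 and 712 and 516 CPM at D4 (log2 -1.05 ± 0.18, edgeR adjusted p = 0.0641), so both D4 libraries were below both D0 libraries. Of its exon bases 30.1% lie opposite another gene, ACTA2-AS1 (means of 2.19 CPM at D0 and 1.29 CPM at D4) or FAS (62.1 and 63.7 CPM), and for TAGLN this share was 11.4%. The other contractile genes that the paper names were closer to 0, at -0.40 for ACTG2, -0.28 for TAGLN and 0.03 for TPM2. The CPM of the groups overlapped in all 3 of these genes. List members at lower CPM than ACTA2 had larger log2 falls, among them TNNT2 (-1.85), MYOCD (-1.54), SYNPO2 (-1.20), ADRA1B (-1.19) and MYH11 (-1.17). None of these was called, and some rested on few reads. TNNT2 had 33 and 37 reads at D0 and 12 and 8 at D4, and MYH11 had 12 and 17 and then 6 and 7. MYOCD changed by -2.34 in experiment 1 and by -0.55 in experiment 2. SMTN, at 0.55, was 1 of the 2 members higher in both experiments. The 26 actin cytoskeleton and focal adhesion genes had 17 lower in both and a median of -0.17, and the 10 YAP and TEAD targets had 7 lower and -0.34. Their members of lowest p were ITGA1, an integrin chain (log2 -0.99, adjusted p = 0.0547), and AJUBA, a LIM-domain protein (log2 -0.62, adjusted p = 0.129). In the elastic fibre list FBN2 was the single call of 14, and 9 were lower in both experiments.

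Collagens differed between the experiments. The median of 10 tested fibrillar collagens was -0.62 in experiment 1 and -0.06 in experiment 2, and that of 17 other collagens -0.52 and -0.06. COL1A1 had 14499 CPM at D0 and 9049 CPM at D4 in experiment 1 but 8694 and 9214 CPM in experiment 2, a change of opposite sign, and COL1A2 had 14774 and 10121 CPM against 11217 and 10485 CPM. COL3A1 had 3360 and 1512 CPM and 2250 and 1647 CPM, lower at D4 in both (log2 -0.74, edgeR adjusted p = 0.840). No collagen passed the test. The spread that the test uses comes from all 8 libraries, and the D10 libraries differed widely, at 2446 and 467 CPM for COL3A1 and 9432 and 1295 CPM for COL1A1. The lowest p among fibrillar collagens was that of COL11A1 (log2 -1.04, adjusted p = 0.588). Among the others it was that of COL13A1 (log2 0.92, adjusted p = 0.126), followed by COL14A1, which binds to collagen fibrils, with 61.8 and 52.1 CPM at D0 and 13.1 and 17.4 CPM at D4 (log2 -1.87, adjusted p = 0.134). Of the small leucine-rich proteoglycans, which regulate collagen fibrils, 4 of 6 tested were lower in both and 0 higher, with a median of -0.48, and LUM, lumican, had -0.92 (adjusted p = 0.121).

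In the TGF-beta family BAMBI was the single call of the blocked edgeR test. Among ligands of the TGF-beta branch, TGFB2 had 80 and 77.8 CPM at D0 and 27.1 and 40.7 CPM at D4 (log2 -1.24 ± 0.20, edgeR adjusted p = 0.0547), TGFB3 had 2.51 and 4.51 CPM and 0.931 and 2.31 CPM (adjusted p = 0.525), and TGFB1 had 158 and 98.7 CPM and 155 and 125 CPM (adjusted p = 0.941). D4 libraries were below D0 libraries for TGFB2 and TGFB3 and mixed with them for TGFB1. Of the 23 genes of this branch 12 were lower and 4 higher in both experiments, with a median of -0.08, and of 11 target genes 4 were lower and 2 higher. The target TGFBI had -0.08 and TGFB1I1 -0.10. Of 25 tested genes of the BMP branch 8 were higher and 10 lower in both experiments. BMP2 had 15.0 and 10.0 CPM and 28.4 and 40.7 CPM (log2 1.39, adjusted p = 0.217), BMP4 had 191 and 156 CPM and 93.7 and 77.4 CPM (log2 -1.02, adjusted p = 0.139), and BMP7 had at most 3 counts in any of the 4 libraries. The log2 fold change was 0.48 for SMAD1, 0.21 for GDF15, -0.08 for TGIF1 and -0.61 for ID4.

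Notch ligands and targets, linked to the early secretory phase, held no call among 12 tested. DLL4, a Notch ligand, had 2.26 and 3.86 CPM at D0 and 10.9 and 13.5 CPM at D4 (log2 2.0 ± 0.45, edgeR adjusted p = 0.148), whereas the target HES1 had 0.670 and 1.67 CPM and 0.466 and 1.79 CPM and the target HEY1 had at most 3 counts in any of the 4 libraries. Inflammatory SASP genes held no call among 16 tested, with a median of 0.21, or 0.00 with the 7 genes at or under 3 counts in a group set to their bounds. Counts of IL1A were 0 in both D0 libraries and 1 in both D4 libraries, those of IL1B were 0 and 1 and then 1 and 2, and those of CXCL5 were 1 and 0 and then 2 and 3, all within the floor of 3 counts, and CXCL1 had 3 and 2 and then 0 and 4. SAA1, an acute phase protein, had the lowest p of the list (log2 1.20, adjusted p = 0.501). CXCL8, interleukin 8, had 1.01 and 2.77 CPM and 0.931 and 4.85 CPM, and IL6, with 20.7% of its exon bases opposite another gene, had 5.03 and 10.2 CPM and 3.18 and 9.47 CPM. For comparison CXCL8 was at 189 and 3012 CPM at D10. Of 20 NF-kappaB subunits and targets VCAM1 was the single call, 7 were higher and 6 lower in both experiments, and the median was -0.01.

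**Figure D5:**
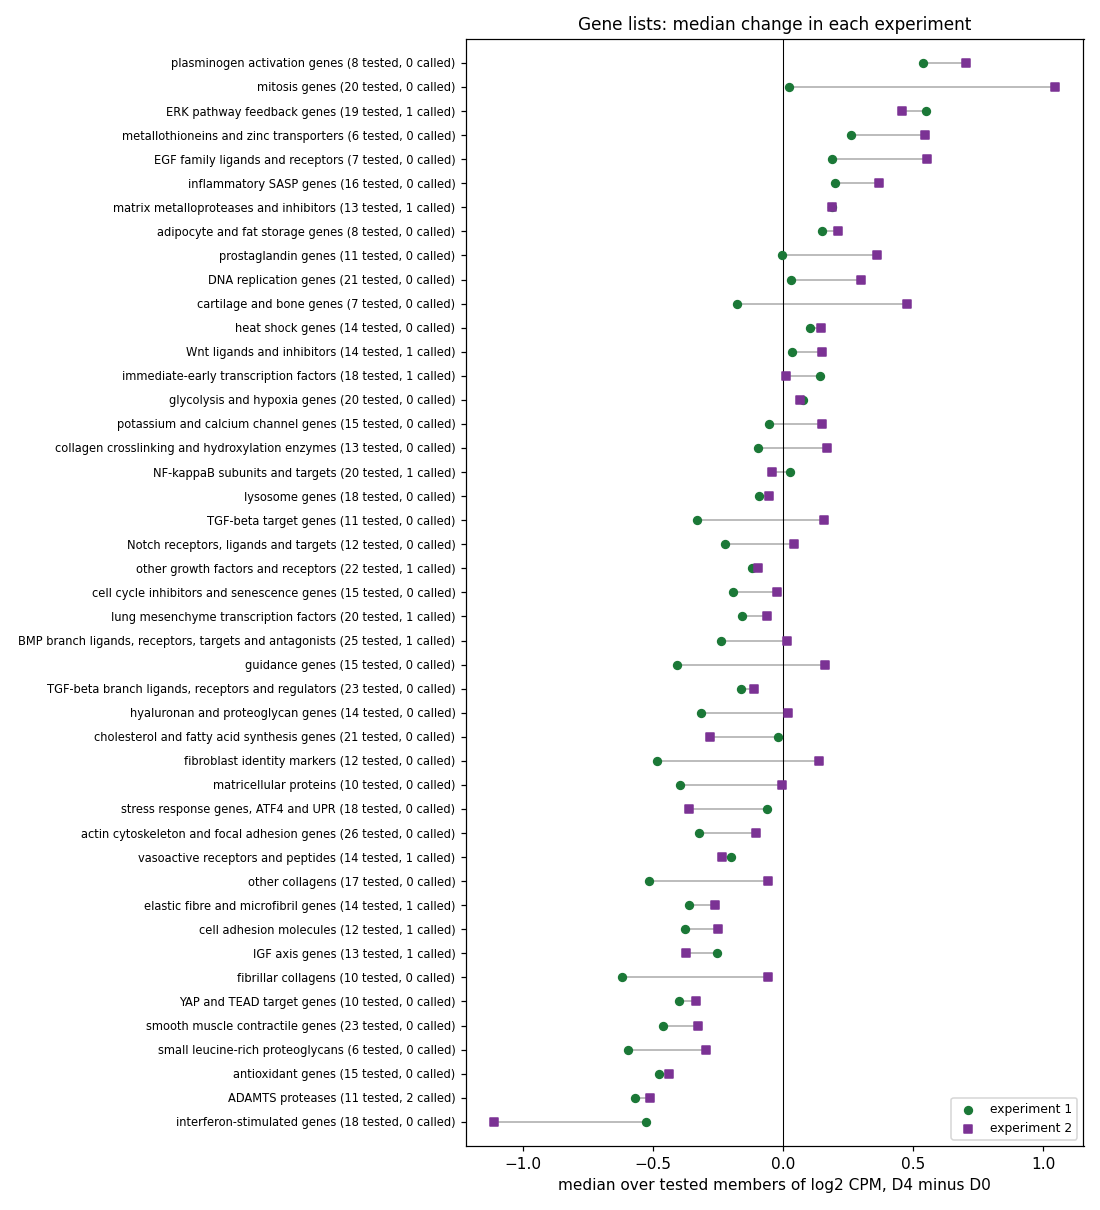
Median over the tested members of each list of the difference in log2 CPM between D4 and D0 (horizontal axis), with experiment 1 as green circles and experiment 2 as purple squares, for the 45 lists with at least 5 tested members. Interferon-stimulated genes are at -0.53 in experiment 1 and lowest of all lists in experiment 2, at -1.11, ERK feedback and plasminogen activation genes are above 0 in both experiments, and mitosis genes are at 0.02 in experiment 1 and 1.05 in experiment 2.

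Markers of arrest did not pass the test at D4. CDKN1A, the inhibitor p21, had 1733 and 1316 CPM at D0 and 1810 and 1059 CPM at D4, CDKN2A, the locus of p16, had 48.5 and 35.6 CPM and 58.2 and 35.0 CPM, and CDKN2B had 24.9 and 36.9 CPM and 39.2 and 52.7 CPM (log2 0.57, edgeR adjusted p = 0.717). Their groups overlapped in CDKN1A and CDKN2A and were separate in CDKN2B. Mitosis genes had a median of 0.70 over 20 tested members, with 10 higher and 0 lower in both experiments, yet it was 0.02 in experiment 1 and 1.05 in experiment 2. MKI67, a marker of dividing cells, had 4.69 CPM at D0 and 4.81 CPM at D4 in experiment 1 and 6.55 and 24.8 CPM in experiment 2 (adjusted p = 0.751), and CDK1, the mitotic kinase, had 1.93 and 2.95 CPM in experiment 1 and 2.91 and 7.31 CPM in experiment 2. LMNB1, a nuclear lamin that is lost in senescence, had 3.94 and 5.17 CPM and 3.03 and 8.43 CPM.

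Just outside the threshold, 55 genes had an adjusted p between 0.05 and 0.10, of which 18 were higher and 37 lower. The first were SOX9, a transcription factor of cartilage and lung, with 47.5 and 43.9 CPM at D0 and 102 and 108 CPM at D4 (adjusted p = 0.0514), and ARHGAP28, with 24.2 and 36.8 CPM and 6.91 and 16.0 CPM (adjusted p = 0.0514). Just inside it were TPBG (adjusted p = 0.0487) and FBN2 (adjusted p = 0.0449).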

How the data were processed

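IMR90 recipients were sequenced after 3 days in medium of day 0, 4, 7 or 10, with 2 libraries per group from independent experiments. The table deposited by the authors holds unnormalized whole-number counts for 27696 genes and 8 columns of RPM values, which were not used. Processing notes of the submitters name STAR 2.5, DESeq2 and GRCh38; the labels describe poly(A) selection and a stranded kit, and the strand setting of the counting is not given in the sources used here. One column header reads DO in place of D0 and was taken as D0 replicate 1. Totals ran from 11708193 to 13395912. Of the identifiers 99.6% are in GENCODE 29, which gave positions and overlaps.

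Counts were filtered with filterByExpr, scaled with TMM and fitted in edgeR 4.0.16 (R 4.3.3) by group and replicate number on all 8 libraries, D4 being compared with D0. Adjusted p-values follow Benjamini-Hochberg over 13798 genes, and a call needed an adjusted p under 0.05 and the same direction in both experiments. Changes within an experiment are differences of log2 CPM with a prior count of 2. Same-numbered libraries were taken to come from the same experiment, which the labels do not state. Their deviations from the mean of the group went together (r of 0.418 to 0.722 over genes, 6 pairs of groups). A group with at most 3 counts in each library is at the floor. Shared sequence was measured in 50-base words. Alternatives were no block, DESeq2 1.42.0 with its size factors, other filters and thresholds, the D0 and D4 libraries alone, a prior count of 0.5 and leaving out each library.

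Named genes are all called genes, the 12 largest changes each way by library, for each list the called member that changed most or otherwise that of lowest p, genes that the paper names, and, as checks, CDKN2A, CDKN2B, CDKN1A, MKI67, LMNB1, ESR1 and HRAS; other names were chosen after their values were seen. One gene of the interferon list is counted there but not reported by itself. The comparison, its members and the lists were chosen with earlier results of these data known. Counts were also simulated from the blocked fit (13638 genes tested), which favours a block. Changes were planted only in genes above a minimum mean CPM, so the shares recovered do not cover genes of low CPM. The blocked edgeR test recovered 66.7%, 97% and 97% of genes changed by log2 1, 1.5 and 2, with 11 unchanged genes among 185 calls. The simulated spread came from the same fit, and 185 calls were made against 38 in the real data. The shares recovered therefore do not give the power of the test on the real libraries. There PLAT, with a log2 fold change of 1.61, was not called (edgeR adjusted p = 0.0722). The test without a block recovered 0%, 4.5% and 23.9%. Figures were drawn with Python 3.11.15.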

Additional observations from a re-analysis of the deposited data

How the results depend on the processing

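Only 2 experiments stand behind each group. From 38, the number of genes changed at D4 went to 0 with no replicate block, 213 with DESeq2 and the replicate block, 510 with no filter on low counts, 960 with only the libraries of D0 and D4, 0 at an adjusted p under 0.01 and 93 at one under 0.10, and it ran from 0 to 491 when single libraries were left out. It stayed within 1.5 times of 38 with DESeq2's size factors in edgeR (39), DESeq2 without the block (44), at least 10 counts in every library (34), at least a 2-fold change (34) and a prior count of 0.5 (38). Dispersion common to all genes was 0.0242 with the replicate block and 0.0792 without. The cause of these moves was not tested, apart from the samples or genes each setting removes.

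No called gene reversed in any fit, which the demand for the same direction in both experiments made likely beforehand. The uncalled genes below changed sign when a single library was left out, and their log2 fold changes then ran from the first to the second value: CDKN1A -0.41 to 0.15, COL1A1 -0.91 to 0.27, COL1A2 -0.76 to 0.078, CXCL1 -3.58 to 0.57, CXCL5 -1.75 to 5.33, CXCL8 -0.27 to 0.88, GDF15 -0.69 to 0.80, HES1 -0.59 to 0.13, HRAS -0.030 to 0.25, ID4 -1.19 to 0.057, IL6 -1.05 to 0.17, LMNB1 -0.25 to 0.58, MKI67 -0.20 to 2.10, MMP3 -0.48 to 2.24, TGFB1 -0.068 to 0.38, TGFB1I1 -0.24 to 0.021, TGFBI -0.30 to 0.13, TGIF1 -0.40 to 0.20 and TPM2 -0.069 to 0.12. List medians moved in 16 of 49 lists without either D0 library, in 12 without D4 replicate 1 and in 23 without D4 replicate 2.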

Other observations

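Of 13 tested IGF axis genes STC1 rose, 9 were lower in both experiments and 4 higher, with a median of -0.37. IGFBP3, which binds insulin-like growth factors, had 411 and 478 CPM at D0 and 180 and 114 CPM at D4 (log2 -1.73 ± 0.42, edgeR adjusted p = 0.180). Antioxidant genes had a median of -0.57, with 9 of 15 lower in both experiments, and NQO1, a quinone reductase with 17.7% of its exon bases opposite another gene, had 249 and 302 CPM and then 167 and 126 CPM (adjusted p = 0.186). Sterol and fatty acid synthesis genes had 12 of 21 lower in both experiments and 0 higher with a median of -0.15, led by the desaturase SCD (-0.63, adjusted p = 0.639). Of 6 tested metallothioneins and zinc transporters 3 were higher in both experiments and 0 were called: MT1E had 38.2 and 29.6 CPM at D0 and 85.9 and 92.4 CPM at D4 (adjusted p = 0.0584), and MT2A had 380 and 183 CPM and then 984 and 646 CPM (adjusted p = 0.0788). Since metallothionein genes resemble each other, reads may be split among them.

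FGF9 was the single call of 22 other growth factors and receptors, WNT2 of 14 Wnt genes, TOX of 20 lung mesenchyme transcription factors, HTR2B of 14 vasoactive genes and VCAM1 of 12 cell adhesion molecules. Across all tested genes 0.275% were called, and these lists were chosen with earlier results of these data known. No call was made among matricellular proteins (THBS1, -0.67, lowest p), hyaluronan and proteoglycan genes (SDC2, -0.79, adjusted p = 0.0516), collagen-modifying enzymes (P4HA3, 0.77), guidance genes (NRP1, 1.30), prostaglandin genes (PTGIR, 1.40), DNA replication genes (RRM2, 0.80), stress response genes (VLDLR, -0.86), glycolysis and hypoxia genes (ENO2, 0.50), heat shock genes (SERPINH1, -0.49), lysosome genes (CTSK, -0.69), channels (TRPA1, 1.00), fat storage genes (CEBPD, -1.18) or cartilage and bone genes, whose member of lowest p was SOX9. DESeq2 with the block gave an adjusted p under 0.05 for SOX9 (2.3e-05), SDC2 (0.00063), TRPA1 (0.0027), THBS1 (0.0052), CEBPD (0.0052) and NRP1 (0.0058). For the other members named in these uncalled lists it did not.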
